A study of Mus musculus with 12 samples.

Results

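The genes described here are 36 genes of ion and water transport in the surface and crypt cells of the colon, read from 12 RNA sequencing libraries of mouse colon. They were chosen by name as genes with a known part in the uptake or secretion of sodium, chloride, bicarbonate, water, short-chain fatty acids, bile acids, phosphate, magnesium or calcium. The rule used names alone, but the set was drawn up with earlier results of these data known. All 36 were among the 54532 genes of the deposited table, and all 36 were among the 24102 genes that passed the filter on low values. The series compared untreated colon with colon of mice given dextran sulfate sodium (DSS), a polymer that injures the colon epithelium, in mice with and without an inducible deletion of Tmem173, the gene of STING, in myeloid cells. Each of the 4 groups had 3 libraries. The untreated and colitic Tmem173fl/fl groups carried Tmem173 alleles flanked by loxP sites and no Cre, so STING was intact. The untreated and colitic Tmem173iΔmye groups carried the same floxed alleles and a tamoxifen-inducible Cre recombinase (CreERT2) driven from Lyz2, a gene of macrophages, neutrophils and other myeloid cells, so that only cells with an active Lyz2 gene at the time of tamoxifen can lose STING. Every mouse, controls included, was on a C57BL/6N background and was given 5 injections of tamoxifen, and mice were 6 to 8 weeks old. The colitic mice drank 2.5% to 3% DSS for 7 days and then water for 1 day. The libraries of colitic Tmem173iΔmye mice carry the replicate numbers 1, 2 and 5.

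The colon takes up most of the salt and water that reaches it. At the surface, apical exchangers of sodium for protons and of chloride for bicarbonate work side by side, and in the distal colon the epithelial sodium channel adds an electrogenic route that aldosterone controls. The Na,K-ATPase on the basolateral side drives all of these steps, carbonic anhydrases supply the protons and bicarbonate, and bacterial short-chain fatty acids enter with sodium or protons. In the crypts, chloride leaves through CFTR after basolateral uptake by the cotransporter Slc12a2, and potassium channels keep the driving force. Guanylin peptides act from the lumen on the receptor Gucy2c and shift this balance towards secretion. Loss of chloride-bicarbonate exchange through SLC26A3 causes congenital chloride diarrhoea in people.

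Tmem173 itself was at 24.5, 14.3 and 22.9 CPM in untreated Tmem173fl/fl, 17.2, 14.6 and 21.3 CPM in untreated Tmem173iΔmye, 42.4, 43.95 and 37.6 CPM in colitic Tmem173fl/fl and 47.8, 23.8 and 31.1 CPM in colitic Tmem173iΔmye libraries, where CPM are counts scaled to a common library size (TMM). The genotypes overlapped with and without DSS, and neither difference was called (log2 fold change -0.21, adjusted p = 1, and -0.28, adjusted p = 0.602), so in whole colon, where other cells express the gene too, it does not check the genotype labels. Library totals lay between 13823237 and 18718915 counts. Epithelial markers were high in every library, smooth muscle markers were present in all, and the summed CPM of small-intestine markers was at most 7.86. The samples are labelled colon. The labels give no sex, and 3 libraries, untreated Tmem173fl/fl replicate 3, untreated Tmem173iΔmye replicate 3 and colitic Tmem173iΔmye replicate 5, had Xist reads and no reads of 4 Y-linked genes. Colitic Tmem173iΔmye replicate 5 also stood apart on the second principal component of all genes and had the highest Hoxd13, a marker of the distal end of the colon. On the first component, with 56.0% of the variance, untreated libraries lay between -61.5 and -41.8 and colitic Tmem173fl/fl libraries between 81.1 and 101.5. Colitic Tmem173iΔmye replicates 1, 2 and 5 lay at 53.4, 11.6 and -22.9. Genes of the exocrine pancreas, 8 in number, took 1.03% of the counts of colitic Tmem173iΔmye replicate 1, 0.900% of those of colitic Tmem173fl/fl replicate 1 and less in the other libraries. No source used here says outright that each library is a separate mouse, and p-values measure the spread between these libraries.

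In untreated Tmem173fl/fl colon, the members covered a wide range of levels per unit of gene length. By FPKM, read counts scaled to gene length and library depth, the highest was Guca2a, the guanylin peptide, at 949.7 ± 464 FPKM (SD, n = 3). Next came Atp1b1, the beta subunit of the sodium pump, at 505 ± 25.5 FPKM, and the carbonic anhydrases Car1 and Car4 at 434 ± 235 and 336 ± 17.9 FPKM. The water channel Aqp8 was at 301 ± 61.00 FPKM and Car2 at 253 ± 20.95 FPKM. The SDs of Guca2a, Atp1b1 and Car1 overlapped, as did those of Car4 and Aqp8 and those of Aqp8 and Car2, whereas Atp1b1 lay above Car4 by more than their spread. At the other end, Scnn1g, the gamma subunit of the sodium channel, was at 0.466 ± 0.321 FPKM and Slc51a, a subunit of the bile acid exporter, at 0.266 ± 0.344 FPKM. The chloride-bicarbonate exchanger Slc26a3 was at 118 ± 14.01 FPKM.

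With DSS in Tmem173fl/fl mice, 17 of the 36 members fell, 4 rose and 15 were not called, where a call needs edgeR's adjusted p to be below 0.05 and the change to reach 1 on the log2 scale in either direction. Among all genes tested, 7.61% fell and 14.9% rose by the same rule, so falls made up a larger share of the members than of all genes and rises a smaller one. The median log2 fold change was -0.82 over the members and 0.03 over all genes. The largest falls were in Trpv6, Atp12a, Trpm6, Aqp4, Fxyd4, Slc5a8, Slc26a3, Scnn1a, Aqp8 and Car4, and the rises were in Slc51a, Clca4b, Sgk1 and Car1. Among the roles, both water channels, both fatty acid transporters, 4 of the 5 pump subunits and 3 of the 4 phosphate, magnesium and calcium genes fell, whereas the guanylin peptides and their receptor were not called in this comparison.

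The libraries of colitic Tmem173fl/fl mice also held less RNA of the epithelium as a whole, and more of the stroma. The summed CPM of 8 general epithelial markers, Epcam, Cdh1, Vil1, Krt8, Krt18, Krt19, Cldn3 and Cldn7, ran from 11728 to 14733 in untreated and from 4355 to 7463 in colitic Tmem173fl/fl libraries, and 5 of the 8 fell, with a median log2 fold change of -1.07. That of 6 fibroblast markers ran from 1179 to 1379 and from 7970.5 to 10150.4, and that of 4 endothelial markers from 85.4 to 94.1 and from 379 to 525. That of 9 leukocyte markers ran from 367 to 529 and from 862 to 1173, and 5 of the 9 rose. Markers of crypt stem and cycling cells, 7 in number, summed to 799 to 1005 and 260.4 to 349 CPM in the same groups, and 6 of the 7 fell, with a median log2 fold change over the 7 of -2.44. Smoc2, the other one, rose. In whole tissue, fewer colonocytes and less RNA of a gene per colonocyte cannot be told apart. When the libraries were scaled to the 8 epithelial genes in place of TMM, the median log2 fold change of all genes went from 0.03 to 1.08. On that scale 10 members fell and 8 rose. Those 10 were Slc26a3, Scnn1a, Atp12a, Fxyd4, Aqp4, Aqp8, Car4, Slc5a8, Trpm6 and Trpv6, which therefore fell by more than the epithelial genes did, and the 8 rises added Scnn1b, Atp1b3, Guca2b and Slc51b to the 4 above. Of all genes, 1.68% fell and 42% rose on that scale, so rises there made up a smaller share of the members than of all genes. The other 7 falls were not called on that scale. Cftr and Car2, at -0.80 and -0.75 with adjusted p of 0.0173 and 0.0146, missed the fold threshold alone. Fxyd3, Slc20a1 and Atp1b1 were at -0.78, -0.65 and -0.41 with adjusted p of 0.0813, 0.0516 and 0.137, and for Slc16a1 and Slc26a2 the log2 fold changes were -0.11 and -0.18.

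**Figure D1:**
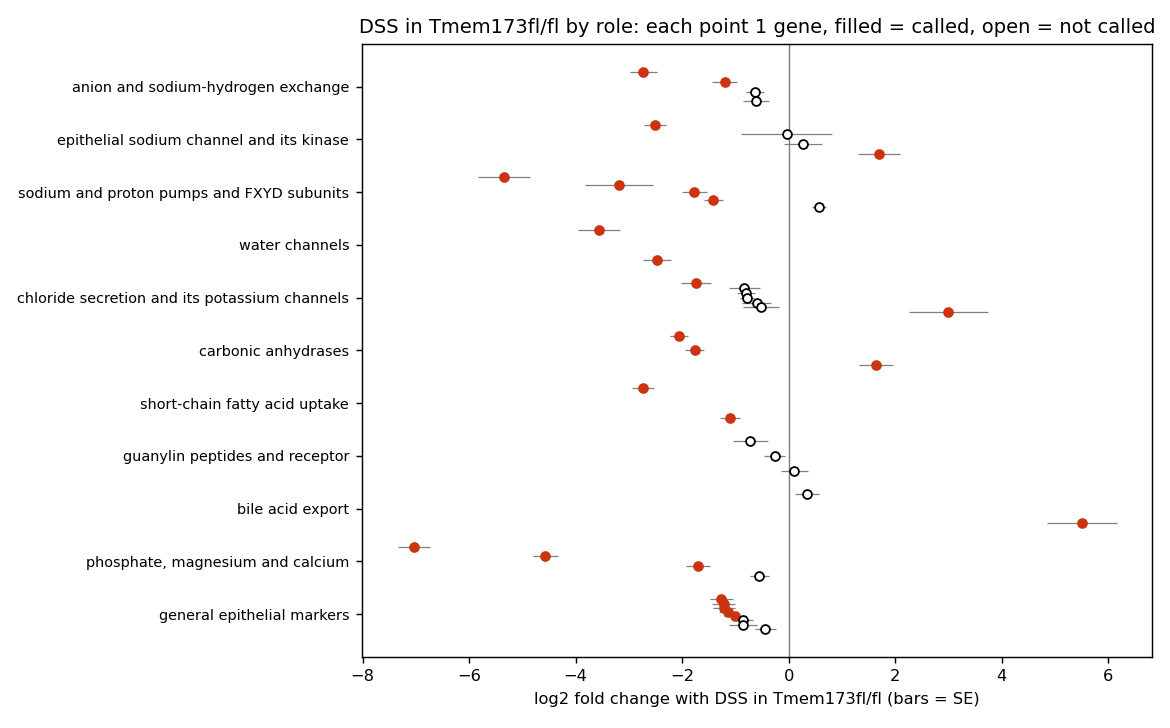
Log2 fold change with DSS in Tmem173fl/fl (horizontal axis, bars give the SE) for each of the 36 genes by role and, in the bottom row, for 8 general epithelial markers. Filled points were called and open points were not. The epithelial markers lie around a median of -1.07, and 10 genes lie far enough to the left of them to be called relative to them.

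In Tmem173iΔmye mice, DSS changed 2 members by the same test. Aqp8 fell and Clca4b rose, while 34 were not called, and 0.597% of all genes fell and 1.48% rose. The median log2 fold change of the members was -0.27 beside 0.02 for all genes, and 24 of the 36 values were negative. This count rested on single libraries. It was 0 without untreated Tmem173iΔmye replicate 1 or replicate 2, 1 without untreated replicate 3, and 8 without colitic replicate 5, when Fxyd3, Aqp8, Trpm6 and Trpv6 fell and Clca4b, Car1, Slc51a and Slc51b rose. Over all genes, 72, 51, 57 and 1469 were called in these fits, in that order, beside 501 in the main fit. General epithelial markers summed to 12157 to 14839 CPM in untreated and 9301 to 11125 CPM in colitic Tmem173iΔmye libraries, and 0 of the 8 were called. Those of leukocytes summed to 285 to 337 and 537 to 935 CPM in the same groups, and 4 of 9 rose. Crypt stem and cycling markers summed to 710.4 to 883 and 291 to 489 CPM in the same groups, and Lgr5, Axin2, Mki67 and Top2a, 4 of the 7, fell, with a median log2 fold change over the 7 of -1.32. Their part in the values of the members was not tested. On the scale of the epithelial genes Slc51b was called too, so that 2 members rose and 1 fell, beside 3.84% and 0.29% of all genes.

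Between the genotypes without DSS, no member was called, with edgeR's adjusted p at 1 for each, and the share of all genes called was 0% in either direction. At an unadjusted p under 0.05, 4 of the 36 members and 720 of the 24102 genes passed, and DESeq2 called 0 members and 3 genes. On the scale of the epithelial genes 0 members were called, beside 0% of all genes higher and 0.00415% lower. The lowest log2 fold change of a member was -0.83 for Atp12a, and -0.19 without untreated Tmem173fl/fl replicate 1, the highest of the 12 libraries.

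Between the colitic genotypes, 10 members were higher in Tmem173iΔmye and none was lower, whereas 0.822% of all genes were higher and 1.99% lower. The 10 were Slc26a3, Scnn1a, Atp1b1, Atp12a, Aqp4, Clca4b, Car2, Car4, Slc5a8 and Trpm6. Their log2 fold changes ran from 1.11 for Atp1b1 to 4.45 for Atp12a, and for each the 3 libraries of one group lay wholly above the 3 of the other. Choosing genes by the call makes such a gap likely, so it adds no support. The share of all genes without overlap was not counted. The median was 0.81 over the 36 members and 0.02 over all genes. With 3 libraries a group, the adjusted p of the 10 lay between 0.0159 and 0.0442, and the calls depended on single libraries. None of the 36 was called without colitic Tmem173fl/fl replicate 1, 4 without its replicate 2 and 2 without its replicate 3, and 2 were called without colitic Tmem173iΔmye replicate 2, whereas 12 and 8 were called without colitic Tmem173iΔmye replicates 1 and 5. Over all genes, 27, 204, 123, 46, 1593 and 508 were called in these fits, in that order, beside 678 in the main fit. Without colitic Tmem173fl/fl replicate 1 the log2 fold changes of the 10 ran from 1.10 for Atp1b1 to 4.67 for Atp12a. The log2 fold changes of the 10 stayed positive under every alternative tried, and the highest adjusted p of a gene among these lay between 0.072 for Atp12a and 0.355 for Atp1b1. On the scale of the epithelial genes, the median of all genes went from 0.02 to -0.77. There Slc26a3, Atp12a, Aqp4, Car4, Slc5a8 and Trpm6 were higher, together with Fxyd4 and Trpv6, and Sgk1, Atp1b3 and Car1 were lower, 8 and 3 in all, beside 0.523% and 17.4% of all genes.

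The difference between the genotypes in their DSS response, tested as an interaction over all 12 libraries, was called for 8 members, and all 8 had the higher value in Tmem173iΔmye: Slc26a3, Scnn1a, Atp1b1, Atp12a, Aqp4, Car4, Slc5a8 and Trpm6. Of all genes, 0.934% had a positive and 1.61% a negative called interaction. On the scale of the epithelial genes, the median of all genes went from 0.04 to -0.74. There Atp12a, Aqp4, Car4, Slc5a8, Trpm6 and Trpv6 had a positive call and Sgk1 a negative one, beside 0.324% and 8.87% of all genes. Without the 3 libraries that lack Y-linked reads, 5 members were called, Scnn1a, Atp12a, Car4, Slc5a8 and Trpm6, and without colitic Tmem173iΔmye replicate 5 alone 8 were called. Over all genes, 201 and 539 were called in these fits, beside 614 in the main fit. Slc26a3, Atp1b1 and Aqp4, which lost the call in the first, were at 1.88, 1.31 and 2.56 (adjusted p = 0.063, 0.0903 and 0.0806). General epithelial markers summed to 4355 to 7463 CPM in colitic Tmem173fl/fl and 9301 to 11125 CPM in colitic Tmem173iΔmye libraries, goblet cell markers to 8410.4 to 14636 and 12909.5 to 19635 CPM and fibroblast markers to 7970.5 to 10150.4 and 2298 to 3368 CPM. Leukocyte markers, of which 3 of 9 were called lower in colitic Tmem173iΔmye, summed to 862 to 1173 and 537 to 935 CPM, and the part of these differences in tissue make-up in these results was not tested.

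**Figure D2:**
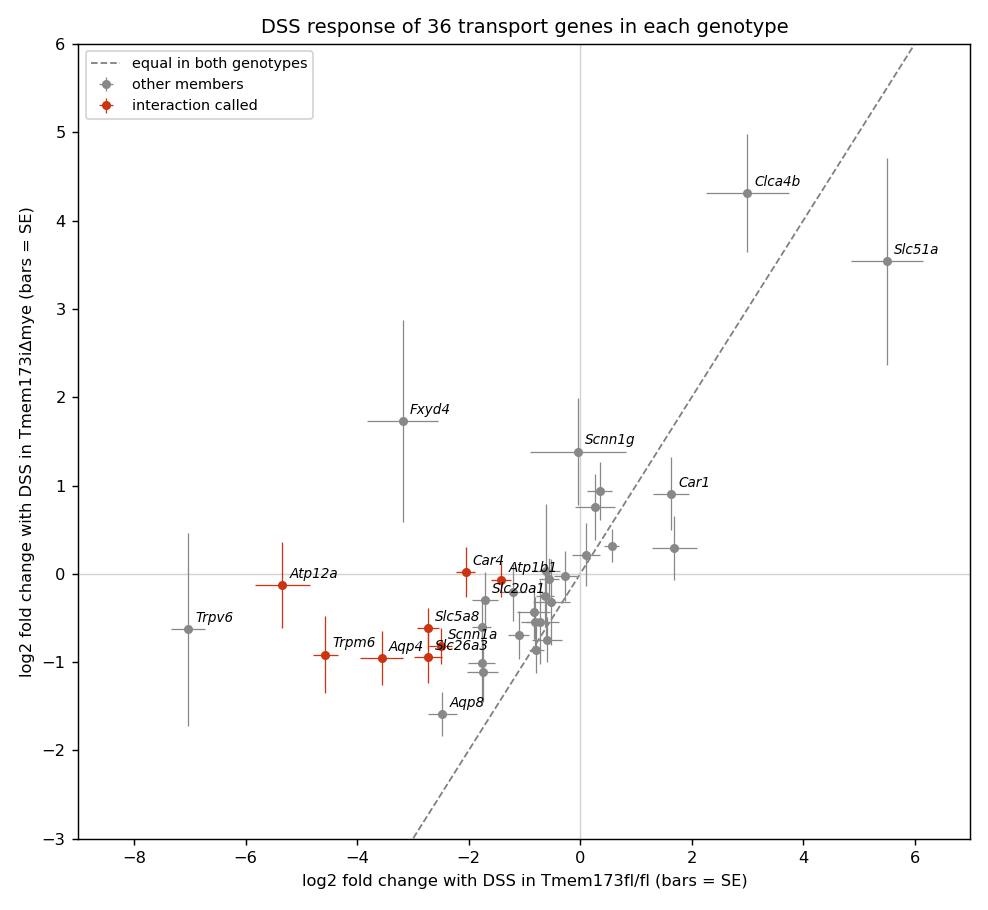
Log2 fold change with DSS in Tmem173fl/fl (horizontal axis) and in Tmem173iΔmye (vertical axis) for the 36 genes, with bars for the SE and a dashed line for equal responses. The 8 genes with a called interaction (red) lie above the line between -5.34 and -1.42 on the horizontal axis and between -0.96 and 0.02 on the vertical axis. Trpv6 lies further from the line, with a wide bar, and was not called.

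**Figure D3:**
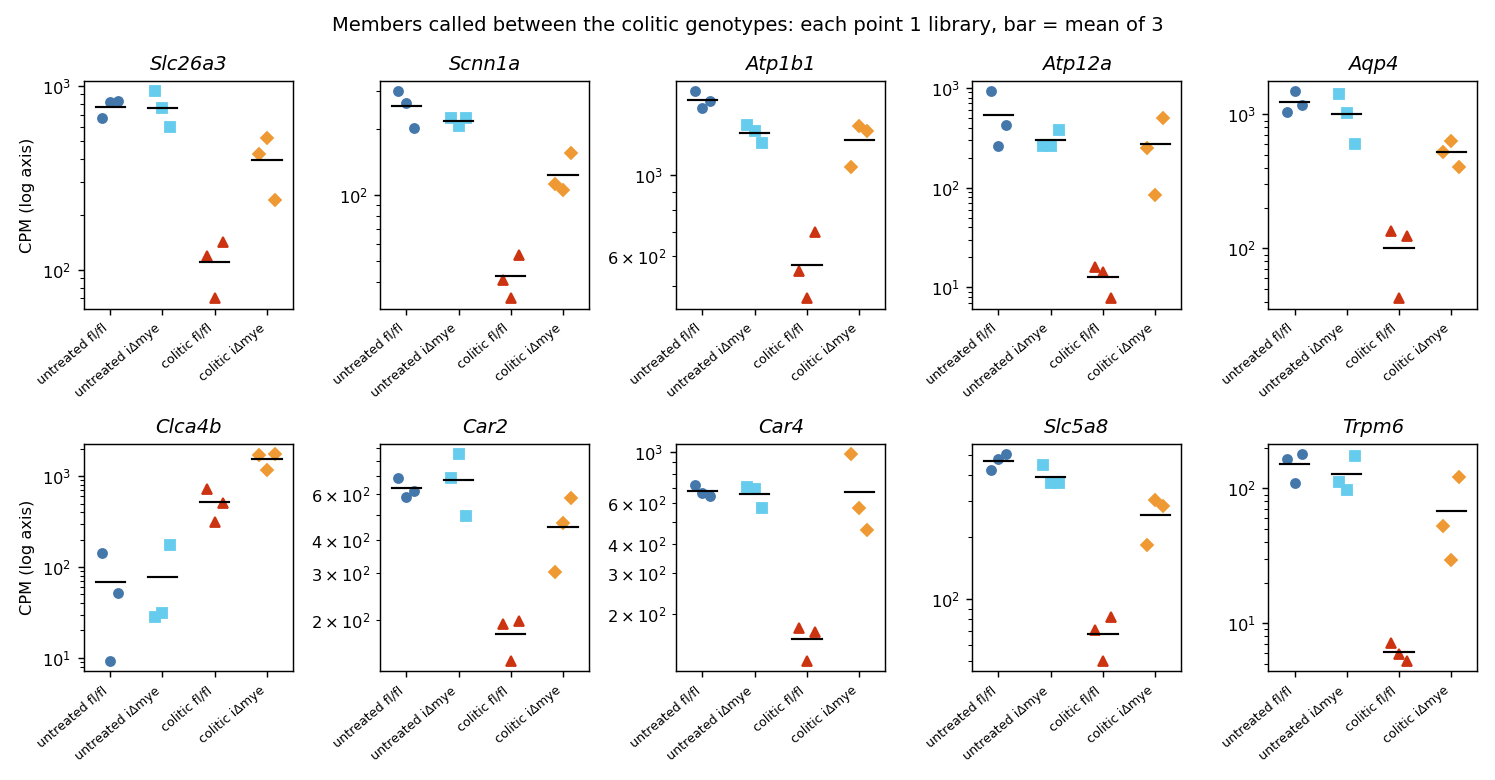
CPM on a log axis of the 10 genes called between the colitic genotypes, with 1 point a library and a bar at the mean of 3. In each panel the 3 colitic Tmem173fl/fl libraries lie below the 3 colitic Tmem173iΔmye libraries, and in the panels other than Clca4b they also lie below the untreated libraries.

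Slc26a3 (ENSMUSG00000001225, chr12:31390871-31473917, plus strand) is the chloride-bicarbonate exchanger of the apical membrane. Slc26a3 was at 667, 814 and 826 CPM in the untreated Tmem173fl/fl libraries, 935, 757 and 599 CPM in untreated Tmem173iΔmye, 119, 70.02 and 143 CPM in colitic Tmem173fl/fl and 429, 525 and 239.7 CPM in colitic Tmem173iΔmye. The colitic Tmem173fl/fl libraries were the 3 lowest of the 12, and colitic Tmem173iΔmye replicate 5 was the lowest of its group. Slc26a3 fell 6.63-fold with DSS in Tmem173fl/fl, with a log2 fold change of -2.73 ± 0.25 (SE) and an adjusted p of 3.25e-05, and its value in Tmem173iΔmye was -0.94 ± 0.30 with an adjusted p of 0.151. Between the colitic genotypes it was 3.57-fold higher in Tmem173iΔmye, with a log2 fold change of 1.84 ± 0.35 and an adjusted p of 0.0332, and the interaction was 1.86 ± 0.42 with an adjusted p of 0.034. Of its 12 interaction fits that left out 1 library, those without colitic Tmem173fl/fl replicate 3 and colitic Tmem173iΔmye replicates 1 or 5 kept the call, and the adjusted p reached 0.0914 in the others. Slc26a2, a sulfate and anion exchanger, fell with DSS in Tmem173fl/fl by 1.198 on the log2 scale, with an adjusted p of 0.00285. The sodium-hydrogen exchangers Slc9a2 and Slc9a3, the route of neutral sodium uptake, had log2 fold changes of -0.63 ± 0.16 and -0.61 ± 0.25 in Tmem173fl/fl and were not called. Slc9a3 was at 759.6, 834 and 42.5 CPM in colitic Tmem173iΔmye, so replicate 5 lay far below the other two, and without it Slc9a3 was higher than in colitic Tmem173fl/fl by 1.37 on the log2 scale.

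The 250 bases upstream of the RefSeq start of Slc26a3 (GRCm38.p6), which lie inside the gene as the deposited table spans it, are shown because the gene fell with DSS and differed between the colitic genotypes. They held none of the 3 motifs searched, CAAAGTCC of the HNF4 family, TTTATG of the CDX family and ACANNNTGT, the core of glucocorticoid and mineralocorticoid receptor elements, on either strand. Those letters were found in 1.196%, 10.8% and 5.84% of all 32851 promoters of the same length, and in 5.88%, 8.82% and 5.88% of the 34 RefSeq promoters at hand, which belong to 25 of the 36 members.
Slc26a3, chr12:31437969-31438218, plus strand: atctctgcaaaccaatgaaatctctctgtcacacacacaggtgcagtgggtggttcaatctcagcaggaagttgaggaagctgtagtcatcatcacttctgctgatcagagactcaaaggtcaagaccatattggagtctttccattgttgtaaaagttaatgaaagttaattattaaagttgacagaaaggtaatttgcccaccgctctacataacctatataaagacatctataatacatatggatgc

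The epithelial sodium channel has 3 subunits. Scnn1a was at 297, 264 and 202 CPM in the untreated Tmem173fl/fl libraries, 225, 206 and 224 CPM in untreated Tmem173iΔmye, 41.1, 33.8 and 53.2 CPM in colitic Tmem173fl/fl and 112, 105 and 156 CPM in colitic Tmem173iΔmye. Scnn1a (ENSMUSG00000030340, chr6:125320659-125344943, plus strand), the alpha subunit, was thus lowest in the 3 colitic Tmem173fl/fl libraries, and the colitic Tmem173iΔmye libraries lay between these and the untreated ones without overlap. It fell 5.67-fold with DSS in Tmem173fl/fl (log2 fold change -2.50 ± 0.21, adjusted p = 1.67e-05) and its value in Tmem173iΔmye was -0.82 ± 0.21 (adjusted p = 0.0814). It was 2.90-fold higher in colitic Tmem173iΔmye than in its colitic counterpart (adjusted p = 0.0191), and the interaction was 1.76 ± 0.30 (adjusted p = 0.00885). Both of these calls were lost on the scale of the epithelial genes (0.79 and 1.01, adjusted p = 0.0656 and 0.0521). The beta and gamma subunits, Scnn1b and Scnn1g, were low in each group and not called in any comparison by the main test. Scnn1b was called with DSS in Tmem173fl/fl on the scale of the epithelial genes (1.23, adjusted p = 0.0115). Scnn1g was called between the colitic genotypes with a replicate block (2.69, adjusted p = 0.0262). Such a block fits a term for each replicate number. Colitic Tmem173fl/fl replicate 3 and colitic Tmem173iΔmye replicate 5 have no partner there, so that value rests on replicates 1 and 2 of each colitic group. Scnn1g was at 2.21, 2.74 and 9.83 CPM in colitic Tmem173iΔmye, highest in replicate 5. Scnn1b overlaps Cog7 on the other strand, and the kit does not mark strand, so reads of the shared part cannot be told apart.

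Sgk1 (ENSMUSG00000019970, chr10:21882184-21999903, plus strand) encodes the kinase that keeps the sodium channel at the membrane and is induced by steroid hormones. Sgk1 was at 68.7, 116 and 78.9 CPM in the untreated Tmem173fl/fl libraries, 139, 197 and 67.6 CPM in untreated Tmem173iΔmye, 128, 225 and 458 CPM in colitic Tmem173fl/fl and 144, 229.7 and 122 CPM in colitic Tmem173iΔmye. The 3 colitic Tmem173fl/fl libraries differed widely among themselves, and all of them lay above the 3 untreated Tmem173fl/fl libraries, although untreated Tmem173iΔmye replicates 1 and 2 were higher than the lowest of them. Sgk1 rose 3.23-fold with DSS in Tmem173fl/fl (log2 fold change 1.69 ± 0.40, adjusted p = 0.00804), and by 1.05 on the log2 scale without colitic replicate 3, still called, whereas in Tmem173iΔmye the value was 0.30 ± 0.36 (adjusted p = 0.752), and the interaction of -1.32 ± 0.62 was not called (adjusted p = 0.28). RefSeq gives Sgk1 6 starts, and the upstream sequence of 2 of them held the steroid receptor core, in capitals in the lines that follow, which is shown because Sgk1 rose while the channel subunit Scnn1a fell. The match is a description of letters and not a tested site.
Sgk1 first start with a match, chr10:21978525-21978573, plus strand: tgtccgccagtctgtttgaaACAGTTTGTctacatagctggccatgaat
Sgk1 second start with a match, chr10:21993684-21993732, plus strand: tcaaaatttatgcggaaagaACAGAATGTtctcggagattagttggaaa

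Pumps and their subunits formed the role with the most falls. Atp12a was at 922, 262 and 429 CPM in the untreated Tmem173fl/fl libraries, 259.5, 262 and 380.5 CPM in untreated Tmem173iΔmye, 15.9, 14.1 and 7.76 CPM in colitic Tmem173fl/fl and 249.6, 83.7 and 494 CPM in colitic Tmem173iΔmye. Atp12a (ENSMUSG00000022229, chr14:56365068-56388550, plus strand), the catalytic subunit of the colonic H,K-ATPase, was more abundant in untreated Tmem173fl/fl replicate 1 than elsewhere, and the 3 colitic Tmem173fl/fl values lay far below the other 9. It fell 40.6-fold with DSS in Tmem173fl/fl (log2 fold change -5.34 ± 0.49, adjusted p = 3.16e-05, and -4.71 without untreated replicate 1) and had a value of -0.13 ± 0.48 in Tmem173iΔmye (adjusted p = 0.935). Between the colitic genotypes the log2 fold change was 4.45 ± 0.63 (adjusted p = 0.0167), and 3.72 without colitic Tmem173iΔmye replicate 5, the highest of its group. The interaction was 5.29 ± 0.79 (adjusted p = 0.0063), the largest called among the members, each of the 12 fits without 1 library called it, and it was 4.55 without colitic Tmem173iΔmye replicate 5 and 4.65 without untreated Tmem173fl/fl replicate 1.

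Atp1b1 was at 1684, 1518 and 1586 CPM in the untreated Tmem173fl/fl libraries, 1362, 1311 and 1217 CPM in untreated Tmem173iΔmye, 549, 461 and 698 CPM in colitic Tmem173fl/fl and 1048, 1359.9 and 1315 CPM in colitic Tmem173iΔmye. Atp1b1 (ENSMUSG00000026576, chr1:164437109-164458355, minus strand), the beta subunit of the Na,K-ATPase, was lower in the 3 colitic Tmem173fl/fl libraries than in all 9 others, and the untreated Tmem173fl/fl libraries were the highest. It fell 2.67-fold with DSS in Tmem173fl/fl (log2 fold change -1.42 ± 0.18, adjusted p = 2.13e-04), with -0.07 ± 0.19 in Tmem173iΔmye (adjusted p = 0.91). It was 2.16-fold higher in colitic Tmem173iΔmye (adjusted p = 0.0442), and the interaction was 1.42 ± 0.25 (adjusted p = 0.0119). Its calls between colitic genotypes and in the interaction were lost on the scale of the epithelial genes, where the log2 fold changes were 0.36 and 0.67. Atp1b3, another beta subunit, went the other way with DSS in Tmem173fl/fl, at 0.57 ± 0.14, and missed the fold threshold. The FXYD proteins are small regulators of the pump. Fxyd3, which overlaps Lgi4 on the other strand, fell by 1.77 with DSS in Tmem173fl/fl (adjusted p = 3.01e-04), and its value in Tmem173iΔmye was -1.01 ± 0.43 (adjusted p = 0.294). Fxyd4, a regulator found in the collecting duct and distal colon, fell by 3.18 (adjusted p = 0.00337, and -2.24 without untreated replicate 3), from 3.56, 1.49 and 9.27 CPM to 0.488, 0.473 and 0.545 CPM, a group total of 27 counts (95% exact Poisson interval 17.8 to 39.3, counting error only). This fall was not called in 1 edgeR fit of all 12 libraries (-3.24, adjusted p = 0.0647). In colitic Tmem173iΔmye, Fxyd4 was at 5.13, 1.49 and 38.6 CPM, and its log2 fold change between colitic genotypes of 4.89 ± 1.13 (adjusted p = 0.0569) missed the threshold, with replicate 5 the highest of the 12 libraries, and was 2.70 (adjusted p = 0.0599) without it. DESeq2 called that difference (4.92, adjusted p = 0.00137), as did edgeR with no filter on low values and in 1 fit of all 12 libraries (adjusted p = 0.00635 and 0.0299).

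Both water channels fell. Aqp4 was at 1048, 1486 and 1180.3 CPM in the untreated Tmem173fl/fl libraries, 1413, 1018 and 597 CPM in untreated Tmem173iΔmye, 134, 42.3 and 124 CPM in colitic Tmem173fl/fl and 528, 630.4 and 405 CPM in colitic Tmem173iΔmye. Aqp4 (ENSMUSG00000024411), a water channel of the basolateral membrane, was lowest in colitic Tmem173fl/fl replicate 2, and the colitic Tmem173iΔmye libraries lay above the colitic Tmem173fl/fl ones and overlapped with the untreated Tmem173iΔmye ones. It fell 11.8-fold with DSS in Tmem173fl/fl (log2 fold change -3.56 ± 0.39, adjusted p = 8.85e-05), with -0.96 ± 0.31 in Tmem173iΔmye (adjusted p = 0.161). It was 5.17-fold higher in colitic Tmem173iΔmye (adjusted p = 0.0276), and the interaction was 2.67 ± 0.54 (adjusted p = 0.0206), called in 9 of the 12 fits without 1 library. Aqp8 was at 514, 574 and 378 CPM in the untreated Tmem173fl/fl libraries, 576, 665 and 499 CPM in untreated Tmem173iΔmye, 116, 57.9 and 77.7 CPM in colitic Tmem173fl/fl and 239, 135 and 206 CPM in colitic Tmem173iΔmye. Aqp8 (ENSMUSG00000030762, chr7:123462291-123468004, plus strand), a channel of the surface colonocyte, was lower in all 6 colitic libraries than in all 6 untreated ones. It fell 5.54-fold in Tmem173fl/fl (log2 fold change -2.47 ± 0.26, adjusted p = 7.29e-05) and 3.004-fold in Tmem173iΔmye (-1.59 ± 0.25, adjusted p = 0.0129), and was the sole member to fall by the test in both genotypes. The call in Tmem173iΔmye was lost without untreated replicate 1, 2 or 3 (adjusted p = 0.101, 0.106 and 0.087), where the log2 fold changes were -1.58, -1.47 and -1.66. DESeq2 called its difference between the colitic genotypes (1.23, adjusted p = 0.00471), whereas the main edgeR fit did not (1.202 ± 0.31, adjusted p = 0.0753). With no filter on low values, in 1 fit of all 12 libraries and with a replicate block, edgeR called that difference (adjusted p = 0.0229, 0.0141 and 0.0375). No fit without 1 library called it. In the block fit the value rested on replicates 1 and 2 of each colitic group. The interaction of 0.96 ± 0.38 was not called (adjusted p = 0.204).

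Of the genes of chloride secretion, Cftr, the chloride channel of the crypt, fell by 1.75 on the log2 scale with DSS in Tmem173fl/fl (adjusted p = 9.16e-04), from 162, 244 and 290.2 CPM to 73.5, 42.04 and 82.7 CPM. In Tmem173iΔmye it was not called, at -1.11 ± 0.35 (adjusted p = 0.151), but was -1.69 (adjusted p = 0.013) and called without colitic replicate 2, and DESeq2 called it with all 6 libraries (-1.10, adjusted p = 0.0305). It was at 239, 211 and 196 CPM in untreated and 70.5, 168 and 61.3 CPM in colitic Tmem173iΔmye, where replicates 1 and 5 lay within the range of colitic Tmem173fl/fl. Pancreatic ducts also express Cftr and the bicarbonate cotransporter Slc4a4, and the part of pancreatic RNA, which was highest in colitic Tmem173iΔmye replicate 1, in their values was not tested. Slc12a2, which loads chloride into the crypt cell, the potassium channels Kcnq1 and Kcnn4, and Slc4a4 had log2 fold changes of -0.83, -0.60, -0.79 and -0.80 in Tmem173fl/fl and none was called.

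Clca4a and Clca4b are neighbouring paralogs of the calcium-activated chloride channel regulator family on chromosome 3, and near-identical stretches can place reads of one on the other. Clca4b was at 142, 9.21 and 52.2 CPM in the untreated Tmem173fl/fl libraries, 28.2, 31.3 and 173 CPM in untreated Tmem173iΔmye, 726, 317 and 507 CPM in colitic Tmem173fl/fl and 1713, 1186 and 1756 CPM in colitic Tmem173iΔmye. Clca4b (ENSMUSG00000074195, chr3:144910921-144932529, minus strand) varied widely within the untreated Tmem173fl/fl group, and all 6 colitic libraries lay above all 6 untreated ones. It rose 7.98-fold with DSS in Tmem173fl/fl (log2 fold change 2.997 ± 0.75, adjusted p = 0.0108) and 19.9-fold in Tmem173iΔmye (4.31 ± 0.67, adjusted p = 0.0126), the sole member to rise by the test in both. The log2 fold changes were 4.13 without untreated Tmem173fl/fl replicate 1 and 5.73 without untreated Tmem173iΔmye replicate 3, the highest untreated library of each genotype. The call in Tmem173fl/fl was lost without untreated replicate 3 (2.85, adjusted p = 0.0594), and that in Tmem173iΔmye without untreated replicate 1 (3.92, adjusted p = 0.0786) or replicate 2 (3.94, adjusted p = 0.0978). It was 2.996-fold higher in colitic Tmem173iΔmye (adjusted p = 0.0438), a call that none of the 6 fits without 1 library kept, and the interaction was 1.39 ± 1.09 (adjusted p = 0.54). Clca4a stayed between 128 and 827 CPM and was not called in any comparison by the main test. It was called between the colitic genotypes with a replicate block (1.27, adjusted p = 0.0333), where the value rested on replicates 1 and 2 of each group. The CDX motif was found once upstream of the RefSeq start of Clca4b, in capitals here because Clca4b rose in both genotypes, and once each for Scnn1g and 1 start of Sgk1.
Clca4b, chr3:144932741-144932779, minus strand: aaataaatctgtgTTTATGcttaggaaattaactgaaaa

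The carbonic anhydrases hydrate carbon dioxide to bicarbonate and a proton. Car4 was at 721, 663 and 648 CPM in the untreated Tmem173fl/fl libraries, 709, 694 and 572 CPM in untreated Tmem173iΔmye, 174, 125 and 167 CPM in colitic Tmem173fl/fl and 978, 571 and 459 CPM in colitic Tmem173iΔmye. Car4 (ENSMUSG00000000805, chr11:84957786-84966044, plus strand), anchored at the apical surface, was tight in the untreated libraries and low in all 3 colitic Tmem173fl/fl libraries, while of colitic Tmem173iΔmye replicate 1 was the highest of the 12, replicate 2 lay just under the untreated range and replicate 5 below it. It fell 4.15-fold with DSS in Tmem173fl/fl (log2 fold change -2.05 ± 0.17, adjusted p = 1.54e-05), with 0.02 ± 0.28 in Tmem173iΔmye (adjusted p = 0.99). It was 4.29-fold higher in colitic Tmem173iΔmye (adjusted p = 0.0185), and the interaction was 2.15 ± 0.35 (adjusted p = 0.00766), which every one of the 12 fits without 1 library called. Car2 was at 689, 585 and 614 CPM in the untreated Tmem173fl/fl libraries, 693, 849.9 and 496 CPM in untreated Tmem173iΔmye, 192, 139.6 and 198 CPM in colitic Tmem173fl/fl and 304, 465 and 578 CPM in colitic Tmem173iΔmye. Car2 (ENSMUSG00000027562, chr3:14886273-14900770, plus strand), a cytosolic form, was lowest in the 3 colitic Tmem173fl/fl libraries, and colitic Tmem173iΔmye replicate 5 lay within the untreated range. It fell 3.40-fold in Tmem173fl/fl (log2 fold change -1.77 ± 0.17, adjusted p = 4.69e-05) and was 2.53-fold higher in colitic Tmem173iΔmye (adjusted p = 0.0392). The latter call was kept in 1 of the 6 fits without 1 library. It was lost on the scale of the epithelial genes (0.57, adjusted p = 0.182). The interaction of Car2, 1.24 ± 0.35, missed the threshold (adjusted p = 0.0768), whereas DESeq2 called it (1.19, adjusted p = 0.0178). With no filter on low values edgeR called it too (1.17, adjusted p = 0.0295), as it did without colitic Tmem173iΔmye replicate 1 (1.45, adjusted p = 0.0122). The other fits without 1 library did not. Car1, also cytosolic, went the opposite way to Car2 and Car4. Car1 was at 353, 903 and 411 CPM in the untreated Tmem173fl/fl libraries, 824, 918 and 392 CPM in untreated Tmem173iΔmye, 1507, 1465 and 1944 CPM in colitic Tmem173fl/fl and 1844, 1557 and 603 CPM in colitic Tmem173iΔmye. The 3 colitic Tmem173fl/fl libraries lay above all 6 untreated ones, as did colitic Tmem173iΔmye replicates 1 and 2. Car1 rose 3.10-fold with DSS in Tmem173fl/fl (log2 fold change 1.63 ± 0.32, adjusted p = 0.00293), with 0.91 ± 0.41 in Tmem173iΔmye (adjusted p = 0.327), where replicate 5 lay below untreated replicates 1 and 2. Car1 is also a gene of red blood cells, whose 5 markers summed to 4.07 to 6.59 CPM in untreated and 152 to 323 CPM in colitic Tmem173fl/fl libraries, and their part in the rise was not tested.

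Short-chain fatty acids are the main fuel of the colonocyte. Slc5a8 was at 426, 479 and 507 CPM in the untreated Tmem173fl/fl libraries, 448, 366 and 367 CPM in untreated Tmem173iΔmye, 70.9, 50.04 and 82.05 CPM in colitic Tmem173fl/fl and 183, 305 and 284 CPM in colitic Tmem173iΔmye. Slc5a8 (ENSMUSG00000020062, chr10:88885992-88929515, plus strand), the sodium-coupled monocarboxylate transporter of the apical membrane, formed 3 separate levels, the untreated libraries, the colitic Tmem173iΔmye libraries and, lowest, the colitic Tmem173fl/fl libraries. It fell 6.64-fold with DSS in Tmem173fl/fl (log2 fold change -2.73 ± 0.20, adjusted p = 8.12e-06), with -0.62 ± 0.23 in Tmem173iΔmye (adjusted p = 0.232). It was 3.77-fold higher in colitic Tmem173iΔmye (adjusted p = 0.0159), and the interaction was 2.18 ± 0.31 (adjusted p = 0.0059), called in each of the 12 fits without 1 library. Slc16a1, which moves monocarboxylates with protons, fell by 1.10 in Tmem173fl/fl (adjusted p = 0.00137), a call that 4 of the 6 fits without 1 library kept.

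Guanylin and uroguanylin, the peptides of Guca2a and Guca2b, and their receptor guanylate cyclase C, the product of Gucy2c, were not called in any comparison by the main test. With DSS in Tmem173fl/fl its log2 fold changes were -0.72 ± 0.33, 0.11 ± 0.25 and -0.27 ± 0.20. There edgeR called Guca2b on the scale of the epithelial genes (1.11, adjusted p = 0.0149) and Guca2a without colitic replicate 3 (-1.05, adjusted p = 0.0313). With a replicate block, which rested on replicates 1 and 2 of each colitic group, Guca2a was called between the colitic genotypes (1.19, adjusted p = 0.0467). Guca2a was at 350.2, 896 and 489.8 CPM in untreated Tmem173fl/fl and 285, 254 and 463 CPM in colitic Tmem173fl/fl, which overlap, and replicate 5 of colitic Tmem173iΔmye was the lowest of the 12 at 145 CPM.

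Slc51a and Slc51b encode the 2 subunits of the basolateral bile acid exporter. Slc51a was at 0.0757, 2.17 and 0.376 CPM in the untreated Tmem173fl/fl libraries, 1.82, 1.98 and 0.421 CPM in untreated Tmem173iΔmye, 24.8, 44.5 and 45.9 CPM in colitic Tmem173fl/fl and 17.7, 31.5 and 0.121 CPM in colitic Tmem173iΔmye. Slc51a (ENSMUSG00000035699, chr16:32474504-32487879, minus strand) was near the detection limit without DSS, with 1, 32 and 6 counts in the untreated Tmem173fl/fl libraries, and was high in 5 of the 6 colitic libraries but not in colitic Tmem173iΔmye replicate 5, which had 2 counts. It rose with DSS in Tmem173fl/fl by 5.50 ± 0.65 on the log2 scale (adjusted p = 1.42e-04), where the size is uncertain because 1 untreated library was at the floor of 3 counts or fewer, and was 7.35 without untreated replicate 2. In Tmem173iΔmye the log2 fold change was 3.54 ± 1.17 (adjusted p = 0.175), and 4.14 with an adjusted p of 5.20e-04 without replicate 5. Slc51b, which overlaps Rasl12 on the other strand, was not called by the main test, at 0.35 ± 0.23 in Tmem173fl/fl and 0.94 ± 0.33 in Tmem173iΔmye. Slc51a lies across Pcyt1a on the other strand, which had several times more counts, so reads in the shared part are uncertain. The upstream sequence of Slc51a held CAAAGTCC once, on the opposite strand and so read as GGACTTTG in capitals.
Slc51a, chr16:32487930-32487977, minus strand: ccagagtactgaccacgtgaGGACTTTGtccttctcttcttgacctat

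Among the mineral transporters, Trpv6 had the largest fall of all members. Trpv6 was at 22.4, 18.1 and 23.05 CPM in the untreated Tmem173fl/fl libraries, 24.6, 3.29 and 26.6 CPM in untreated Tmem173iΔmye, 0.108, 0.189 and 0.136 CPM in colitic Tmem173fl/fl and 2.07, 0.684 and 32.6 CPM in colitic Tmem173iΔmye. Trpv6 (ENSMUSG00000029868, chr6:41620624-41636405, minus strand), the apical calcium channel that vitamin D induces, was at a like level in 6 libraries, among them colitic Tmem173iΔmye replicate 5, lower in untreated Tmem173iΔmye replicate 2 and in colitic Tmem173iΔmye replicates 1 and 2, and lowest in colitic Tmem173fl/fl. The 3 colitic Tmem173fl/fl libraries had 2, 4 and 2 counts, 8 in all (95% exact Poisson interval 3.45 to 15.8, counting error only), against 296, 268 and 368 in the untreated ones. Its log2 fold change was -7.03 ± 0.31 with DSS in Tmem173fl/fl (adjusted p = 6.08e-07) and -0.63 ± 1.09 in Tmem173iΔmye (adjusted p = 0.839). Between the colitic genotypes it was 6.26 ± 1.51 (adjusted p = 0.0644), which missed the threshold although the groups did not overlap, and it was 3.16 (adjusted p = 0.0682) without replicate 5. DESeq2 called that difference (6.36, adjusted p = 8.72e-04), as did edgeR with no filter on low values and in 1 fit of all 12 libraries (adjusted p = 0.0078 and 0.0138). The interaction was 6.48 ± 1.71 (adjusted p = 0.0607), and 3.36 (adjusted p = 0.133) without replicate 5. With no filter on low values edgeR called it (6.42, adjusted p = 0.00101), as it did with a replicate block (3.80, adjusted p = 0.0422). In the block fit, colitic Tmem173iΔmye replicate 5 is the sole library of its number and adds nothing to the value. Fits without colitic Tmem173iΔmye replicate 1 or 2 called the interaction too (6.97 and 7.04, adjusted p = 0.0184 and 0.0284). DESeq2 and the other fits without 1 library did not. The sequence upstream of Trpv6 is shown because it held CAAAGTCC on both strands, once on each, in capitals.
Trpv6, chr6:41636406-41636655, minus strand: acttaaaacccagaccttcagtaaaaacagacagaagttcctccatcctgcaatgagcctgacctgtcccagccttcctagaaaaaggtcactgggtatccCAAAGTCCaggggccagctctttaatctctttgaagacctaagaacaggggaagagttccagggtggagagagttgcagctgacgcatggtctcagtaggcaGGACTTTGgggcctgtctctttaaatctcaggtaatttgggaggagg

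Trpm6 was at 166, 110.5 and 179.7 CPM in the untreated Tmem173fl/fl libraries, 112, 97.2 and 174 CPM in untreated Tmem173iΔmye, 7.10, 5.97 and 5.24 CPM in colitic Tmem173fl/fl and 52.7, 29.4 and 122 CPM in colitic Tmem173iΔmye. Trpm6 (ENSMUSG00000024727, chr19:18749983-18892510, plus strand), the magnesium channel of the colon surface and kidney tubule, was lower in the 3 colitic Tmem173fl/fl libraries than in the other 9, and colitic Tmem173iΔmye replicate 5 lay within the untreated range. It fell 23.7-fold with DSS in Tmem173fl/fl (log2 fold change -4.57 ± 0.23, adjusted p = 1.14e-06), with -0.91 ± 0.44 in Tmem173iΔmye (adjusted p = 0.353), and -1.61 there without replicate 5, when it was called. It was 11.1-fold higher in colitic Tmem173iΔmye (log2 fold change 3.47 ± 0.50, adjusted p = 0.0172), and 2.74 on the log2 scale without replicate 5, still called. The interaction was 3.73 ± 0.58 (adjusted p = 0.00696), called in each of the 12 fits without 1 library, with 2.98 without colitic Tmem173iΔmye replicate 5. Slc20a1, a sodium-phosphate cotransporter, fell by 1.71 in Tmem173fl/fl (adjusted p = 3.01e-04). Its interaction was called by DESeq2 (1.44, adjusted p = 0.0215) and not by the main edgeR fit (1.48 ± 0.43, adjusted p = 0.0857). With no filter on low values edgeR called it (1.42, adjusted p = 0.017), as it did without colitic Tmem173iΔmye replicate 1 (1.69, adjusted p = 0.0264). The other fits without 1 library did not. Atp2b1, a basolateral calcium pump, had a log2 fold change of -0.55 ± 0.18 and was not called.

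Several members differed between libraries of the same group as Hoxd13 did, a Hox gene whose expression rises towards the anus. Hoxd13 was at 44.99, 5.14 and 17.5 CPM in untreated Tmem173fl/fl, 4.92, 3.83 and 88.01 CPM in untreated Tmem173iΔmye, 6.12, 5.07 and 1.77 CPM in colitic Tmem173fl/fl and 7.98, 2.43 and 183 CPM in colitic Tmem173iΔmye. The 4 libraries above 10 CPM were untreated Tmem173fl/fl replicates 1 and 3, untreated Tmem173iΔmye replicate 3 and colitic Tmem173iΔmye replicate 5, and within each of the 3 groups that hold one, these had the lowest Slc51a, Car1 and Guca2a and the highest Fxyd4 and Trpm6. These 5 genes were picked after their values were seen. By the same reading Slc9a2, Slc9a3, Sgk1, Aqp4, Clca4a and Gucy2c were also lowest in these libraries. Atp12a, Clca4b and Trpv6 were also highest there. The share of all genes that do so was not counted. Of these 4 libraries, all but untreated Tmem173fl/fl replicate 1 are the libraries with Xist reads and no Y-linked reads, so within groups Hoxd13 and sex cannot be told apart for them. Another distal Hox gene, Hoxb13, was at 252, 139 and 190.3 CPM in untreated Tmem173fl/fl, 112, 87.2 and 237 CPM in untreated Tmem173iΔmye, 4.93, 0.710 and 0.613 CPM in colitic Tmem173fl/fl and 28.6, 21.1 and 196 CPM in colitic Tmem173iΔmye. Its log2 fold change with DSS in Tmem173fl/fl was -6.45 ± 0.67 (adjusted p = 6.56e-05), with Hoxa13 and Hoxd13 also called lower, 3 of 6 distal Hox genes. Hoxa13 and Hoxb13 were also called between the colitic genotypes, both with the higher level in Tmem173iΔmye. The summed CPM of the 6 ran from 221 to 383 in untreated Tmem173fl/fl, from 180.1 to 417 in untreated Tmem173iΔmye, from 26.96 to 42.9 in colitic Tmem173fl/fl and from 87.2 to 499.7 in colitic Tmem173iΔmye, and the part of the sampled stretch of colon in the DSS falls and in the differences between genotypes was not tested.

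**Figure D4:**
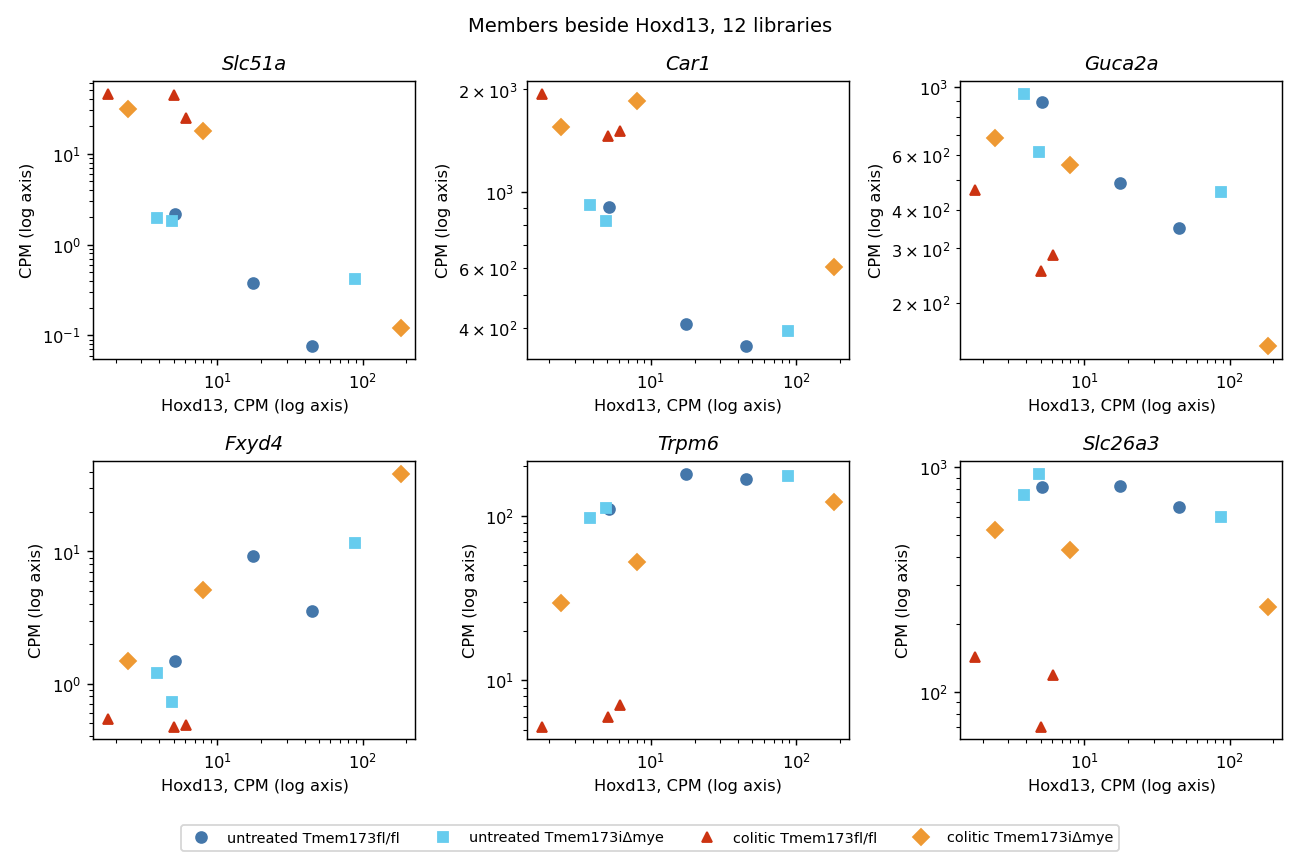
CPM of 6 members (vertical axes) against CPM of Hoxd13 (horizontal axes), both on log axes, with 1 point for each of the 12 libraries and a colour and shape for each group. Slc51a, Car1 and Guca2a are lower and Fxyd4 higher in the 4 libraries with Hoxd13 above 10 CPM than in the others of their groups, and the 3 colitic Tmem173fl/fl points of Trpm6 and Slc26a3 lie below the others.

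Beyond the members, a list of 78 other genes of the same pathways, of which 72 were tested, gave 20 rises and 15 falls with DSS in Tmem173fl/fl, beside 14.9% and 7.61% of all genes, and a median log2 fold change of 0.06. Among genes of at least 1 FPKM in the higher group, the largest falls were in Clca1 (-3.79 ± 0.39, adjusted p = 6.40e-05), a secreted goblet cell protein, Kcne3 (-3.12 ± 0.30, adjusted p = 4.31e-05), the partner subunit of Kcnq1 in the crypt, S100g (-2.71 ± 0.77, adjusted p = 0.0196), a vitamin D-dependent calcium-binding protein, and Fabp6 (-2.91 ± 0.63, adjusted p = 0.00501), a bile acid-binding protein. The largest rises were in Slc10a2 (5.90 ± 0.41, adjusted p = 5.54e-06), the apical bile acid importer, Slc16a3 (2.87 ± 0.20, adjusted p = 5.17e-06), a lactate exporter, Gpbar1 (2.85 ± 0.46, adjusted p = 9.74e-04), a bile acid receptor of the cell surface, and Atp1b2 (2.70 ± 0.18, adjusted p = 4.24e-06), a pump subunit. Slc10a2 and Atp1b2 were also the 2 rises called in Tmem173iΔmye, at 4.004 ± 0.81 and 1.78 ± 0.29, beside 1.48% of all genes. Slc10a2 was at 0.454, 0.542 and 1.63 CPM in untreated and 45.7, 41.9 and 67.2 CPM in colitic Tmem173fl/fl libraries, and the bile acid importer and the exporter subunit Slc51a both rose. None was called between the genotypes without DSS. Between the colitic genotypes, Clca1 (2.32 ± 0.41) and Car3 (1.95 ± 0.41) were higher and Aqp1 (-1.11 ± 0.20) and Slc4a1 (-4.57 ± 1.003) lower in Tmem173iΔmye, with adjusted p of 0.0278, 0.0444, 0.0288 and 0.0495, 2 each way beside 0.822% and 1.99% of all genes. Aqp1 is an endothelial water channel and Slc4a1 the anion exchanger of red blood cells, and both cell types' markers were lower in colitic Tmem173iΔmye too, with red blood cell sums of 152 to 323 and 23.8 to 29.01 CPM and endothelial sums of 379 to 525 and 136 to 285 CPM. In the interaction, Nr3c2 (1.18 ± 0.23, adjusted p = 0.0156), the mineralocorticoid receptor, and Cnnm4 (1.28 ± 0.29, adjusted p = 0.0321), a basolateral magnesium exporter, were positive, and Slc4a1 (-8.37 ± 1.74, adjusted p = 0.0237), Aqp1 (-1.45 ± 0.34, adjusted p = 0.0384) and Slc16a3 (-1.84 ± 0.34, adjusted p = 0.0134) negative, 2 and 3 genes beside 0.934% and 1.61% of all genes. Slc4a1 had 0, 0 and 1 counts in untreated Tmem173fl/fl and 0, 2 and 4 in colitic Tmem173iΔmye, so its fitted values depend on the prior count. Nr3c2 was at 127, 142 and 153 CPM in untreated and 51.6, 39.4 and 54.7 CPM in colitic Tmem173fl/fl, and at 120.3, 113 and 138 CPM in untreated and 92.8, 107 and 91.8 CPM in colitic Tmem173iΔmye.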

How the data were processed

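Total RNA of colon was extracted with TRIzol and purified with lithium chloride, and polyA libraries were made with the NEBNext Ultra RNA kit, which does not mark strand. Per the labels' processing notes, the submitters' processing named CASAVA 1.8, fastp, HISAT2 2.0.5, featureCounts 1.5.0-p3 and DESeq2 1.20.0 on GRCm38/mm10. The authors deposited 1 table with whole-number counts per gene and library and FPKM values, which equal the counts divided by gene length and multiplied by 1 constant per library. It also holds the authors' own comparisons (log2 fold changes, p-values) and group means, which were not used. There were 0 columns of per-sample values that could not be matched to a sample.

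Sample titles gave the group and replicate number. Counts were tested with edgeR 4.0.16 (quasi-likelihood, TMM scaling) in R 4.3.3 on 24102 of 54532 genes, those that reached 0.1 FPKM in 3 or more of the 12 libraries, and p-values were adjusted (Benjamini-Hochberg) over all of them. Calls took an adjusted p below 0.05 and a change of 1 or more on the log2 scale, up or down. Each pairwise comparison was fitted on its own 6 libraries and the interaction on all 12. The SE is the log2 fold change over the square root of the F statistic. A library with 3 counts or fewer was taken as at the floor. The script was tested on simulated counts. DESeq2 1.42.0, RLE scaling, scaling to 8 epithelial genes, other filters and thresholds, a replicate block, 1 fit of all libraries and leaving out each library were the alternatives. Leaving out the 3 libraries that lack Y-linked reads was added after the data were seen.

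The members and gene lists were chosen with earlier results of these data known. The members called between the colitic genotypes or in the interaction were, by rule, given in every library, and some others were too. Also named were the called members with the largest changes, up to 10 falls and 6 rises with DSS in Tmem173fl/fl and up to 6 falls and 4 rises in Tmem173iΔmye (mean FPKM of at least 1 in the higher group), the 6 members highest in untreated Tmem173fl/fl and Slc26a3. For the other genes of the pathways, it was those called between the colitic genotypes or in the interaction and the 4 largest falls and rises with DSS in Tmem173fl/fl. Promoter sequences are RefSeq's, build GRCm38.p6, 250 bases before each start, matched by symbol.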

Additional observations from a re-analysis of the deposited data

Results flagged for a closer look

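For 8 members the response to DSS differed between the genotypes by the test of the difference itself, edgeR's interaction term with Benjamini-Hochberg adjustment over 24102 genes. The difference, the log2 fold change in Tmem173iΔmye minus that in Tmem173fl/fl, was 1.86 for Slc26a3, 1.76 for Scnn1a, 1.42 for Atp1b1, 5.29 for Atp12a, 2.67 for Aqp4, 2.15 for Car4, 2.18 for Slc5a8 and 3.73 for Trpm6. The adjusted p ran from 0.0059 for Slc5a8 to 0.034 for Slc26a3. In each of the 8 the log2 fold change in Tmem173fl/fl was negative and called, and that in Tmem173iΔmye was closer to 0 and not called.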

How the results depend on the processing

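Of 21 members called with DSS in Tmem173fl/fl, between 19 and 23 were called when 1 library was left out, and between 18 and 26 under the other settings. For DSS in Tmem173iΔmye, the count of 2 became 4 without a filter on low values and 6 at an unadjusted p of at most 0.05 with the fold threshold, and ranged from 0 to 8 when 1 library was left out. Between the genotypes without DSS it was 0 under every setting tried. Between the colitic genotypes, the count of 10 ranged from 0 to 12 when 1 library was left out, and from 9 to 15 under the other settings. In the interaction, the count of 8 ranged from 6 to 12 when 1 library was left out, was 13 at an unadjusted p of at most 0.05 with the fold threshold, and was 5 without the 3 libraries that lack Y-linked reads. Counts over all genes moved as well. With 1 library left out they ran from 51 to 1469 for DSS in Tmem173iΔmye, beside 501 in the main test. They ran from 27 to 1593 between the colitic genotypes and from 267 to 1728 in the interaction, beside 678 and 614. No member that was called in the main test or under an alternative changed direction between them. The cause of these shifts was not tested, other than that the fits without a library hold fewer samples.

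The shared replicate numbers do not pair the samples: the deviations of same-numbered libraries from their group means correlated between -0.17 and 0.20. With a replicate block, 21, 10, 0, 15 and 10 members were called in the order of the comparisons above, beside 4939, 1369, 94, 849 and 590 of all genes. A library whose number no other library of the fit carries adds nothing to the log2 fold change there. That holds for colitic Tmem173iΔmye replicate 5 in every comparison it enters. It also holds for untreated Tmem173iΔmye replicate 3 in the DSS comparison and for colitic Tmem173fl/fl replicate 3 between the colitic genotypes. In those comparisons these counts rest on fewer libraries than the main test. Counting depth limits Trpv6, Fxyd4, Slc51a and Scnn1g, which had few counts in at least 1 group.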
